A study of Mus musculus with 20 samples.

Results

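The RANK and noncanonical NF-kB pathway was followed through 10 genes in medullary thymic epithelial cells of Aire knockout (KO) and Aire wild-type (WT) mice. All probe sets annotated to exactly 1 of the symbols Tnfsf11, Tnfrsf11a, Tnfrsf11b, Ltbr, Traf6, Map3k14, Nfkb2, Relb, Rel and Nfkb1 were taken, which gave 18 of the 45037 probe sets tested. They covered 9 of the 10 genes, among 18193 genes with such a probe set, and Nfkb1 was not analysed here. The cells were sorted by flow cytometry from digested thymi as CD45 negative, G8.8 positive (the epithelial marker Epcam), Ly51 intermediate and MHC class II high, with the thymus of 1 male mouse per array, and the mice were 3 to 4.5 weeks old. The groups were NOD KO (3 mice) and NOD WT (3), BALB KO (4) and BALB WT (4), and B6 KO (3) and B6 WT (3), 20 Affymetrix arrays in all. The sources used here do not say how the Aire allele was made, nor which BALB and B6 substrains were used. The title of the series names the effect of Aire in individual mice of different genetic backgrounds as its subject.

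RANK, encoded by Tnfrsf11a, is a receptor of the tumour necrosis factor family, and its ligand RANKL, encoded by Tnfsf11, is opposed by the secreted decoy receptor osteoprotegerin, encoded by Tnfrsf11b. In the thymus RANK signals, together with CD40 and the lymphotoxin beta receptor (Ltbr), drive the growth and maturation of medullary epithelial cells, including those that make Aire, a transcriptional regulator of genes of peripheral organs. RANK signals through the adaptor TRAF6 to canonical NF-kB and through the kinase NIK, encoded by Map3k14, to the noncanonical branch, in which the precursor encoded by Nfkb2 is processed and enters the nucleus with RelB.

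Values are log2 of the deposited array intensities. Percentiles among all probe sets describe brightness on the array only and do not rank the genes' expression. Median intensities per array were 86.3 to 90.9 units. All 12 medullary epithelial markers lay above the median level of all probe sets, with array means from 10.80 to 11.38. Averaged over the strains, 2 were lower in KO mice (limma, adjusted p under 0.05), Krt5 (-0.69) and Krt14 (-0.44). Another 3 were higher, Cd80 (0.85), Aire (0.74) and H2-Ab1 (0.22), and the others did not pass. The part of such shifts in the results below was not tested. The Aire probe set was higher, not lower, in mice labelled KO (11.91 in NOD KO and 11.19 in NOD WT, 10.95 in BALB KO and 10.25 in BALB WT, 11.53 in B6 KO and 10.73 in B6 WT). The sources used here do not place it relative to the deleted part, which leaves it no check of the genotype, and KO means labelled KO. The arrays of 3 B6 mice, KO 2, KO 3 and WT 2, stood apart: their Gapdh 3' minus 5' probe set difference was 1.68 to 1.90, against 2.15 to 3.76 on the other arrays. KO 2 and KO 3 were the most alike pair of all arrays (r = 0.996). Results that rest on these arrays are given with and without them.

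The knockout effect was the difference KO minus WT averaged over the 3 strains. In KO mice Tnfsf11 fell on 1 of 2 probe sets. Tnfrsf11b rose on 1 of 2, Traf6 on 4 of 5, Nfkb2 on 1 of 2 and Relb on its only probe set. Tnfrsf11a, Ltbr, Map3k14 and Rel did not pass the test. Of the 18 probe sets 8 passed (limma, Benjamini-Hochberg adjusted p under 0.05 over all probe sets), 1 lower and 7 higher. Of all probe sets tested 20.6% passed, 10.1% lower and 10.5% higher. At an unadjusted p under 0.05 the count was 11 of 18, against 15347 of the 45037 probe sets. The median difference over the 18 probe sets was 0.23, against 0.06 over all probe sets. Without the 3 B6 arrays 4 of 18 passed, Tnfsf11 and 3 probe sets of Traf6, against 14.6% of all probe sets. With the replicate number as a block 11 of 18 passed, against 37.0% of all probe sets. This added Tnfrsf11a 1419214_at (limma, adjusted p = 0.0352), Tnfrsf11b 1418309_at (0.0109) and Map3k14 1434364_at (0.00486). That fit also blocks B6, where the numbers were not taken as pairs. The plot of the knockout effect by probe set shows the members together.

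**Figure D1:**
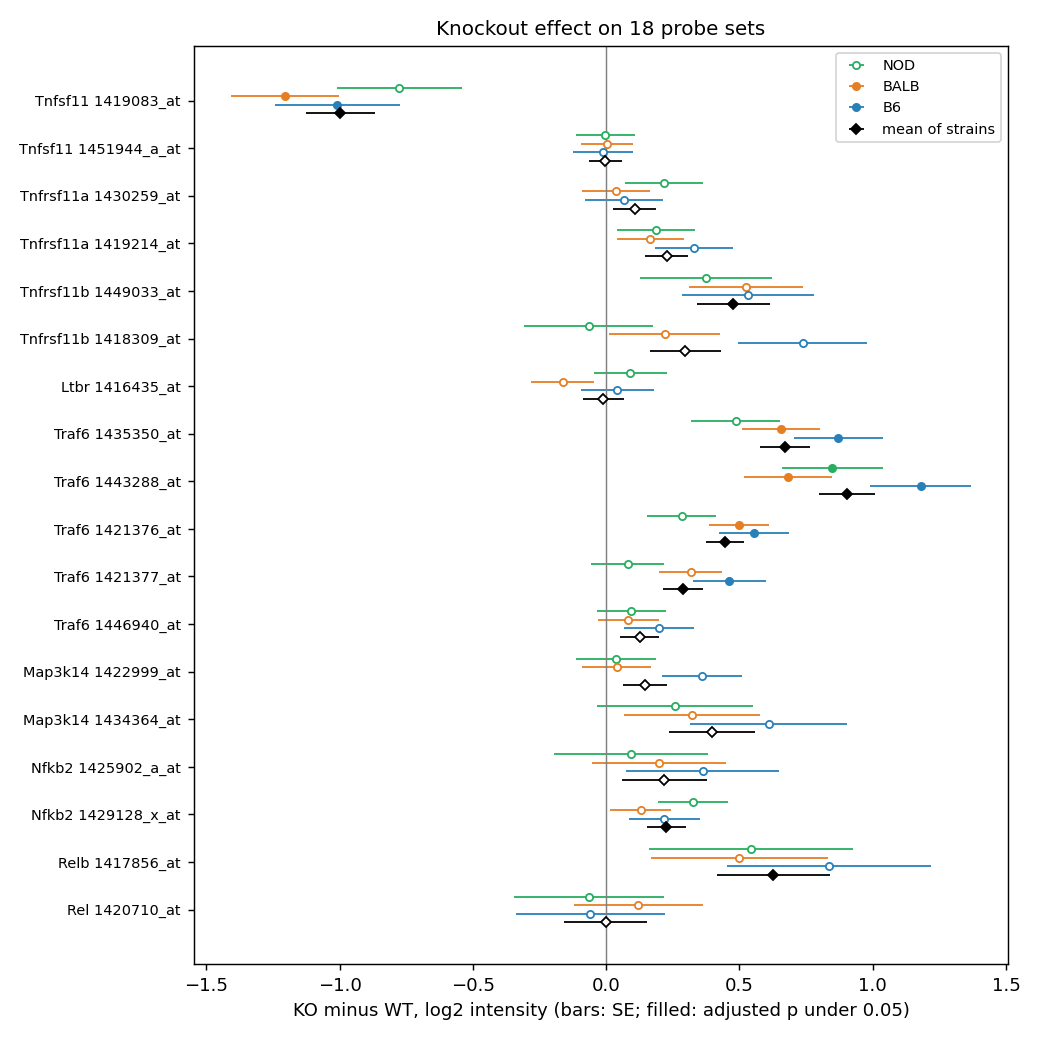
Knockout effect on the 18 probe sets. The horizontal axis gives KO minus WT in log2 intensity for NOD, BALB, B6 and the mean of the strains, bars are the SE, and filled symbols passed the test. Tnfsf11 1419083_at lies left of 0 (mean -1.0), and 4 probe sets of Traf6 lie right of 0 with filled symbols for the mean (0.29 to 0.90).

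The ligand Tnfsf11 fell in KO mice on the probe set 1419083_at. It read 4.80, 4.96 and 4.71 in NOD KO mice, against 5.52, 5.62 and 5.66 in NOD WT mice. It read 4.87, 4.49, 4.98 and 4.94 in BALB KO mice, against 6.28, 5.49, 5.80 and 6.53 in BALB WT mice. It read 4.65, 4.60 and 4.69 in B6 KO mice, against 5.51, 6.20 and 5.26 in B6 WT mice. All 10 KO mice lay below every WT mouse of their strain, an arrangement found in 3.17% of all probe sets. The averaged difference was -1.0 ± 0.13 (SE), a 2.0-fold fall (limma, adjusted p = 1.79e-05), and it was -0.90 without the 3 B6 arrays (adjusted p = 0.000372). The probe set averaged 5.28 over all arrays, at percentile 25.2 of all probe sets, and any background left in the values makes the fold too small. The second probe set, 1451944_a_at, had group means of 3.58 to 3.63 at percentile 3.3, and its difference had a 95% interval of -0.13 to 0.13.

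Tnfsf11 is known from T cells and lymphoid tissue inducer cells, so markers of these cells are given beside its fall. The sort was gated on CD45 negative cells. The probe set of Ptprc, which encodes CD45, read 7.97 to 11.08 over the arrays, at percentile 90.7. Of 9 thymocyte markers 2 were lower in KO mice, Cd3g (-0.92) and Dntt (-0.67), and 7 did not pass. The mean of the thymocyte list spanned 6.61 to 7.47 in NOD KO and 6.99 to 7.92 in NOD WT mice, and 6.69 to 7.02 in BALB KO and 6.91 to 7.28 in BALB WT mice. It spanned 6.75 to 6.89 in B6 KO and 6.99 to 7.10 in B6 WT mice. The list was thus lower without overlap in B6, and its ranges overlapped in NOD and BALB. By mouse number it read 7.02, 6.84, 6.69 and 6.79 in BALB KO, against 7.28, 7.16, 6.91 and 6.93 in BALB WT mice. In NOD it read 6.61, 7.23 and 7.47 in KO, against 6.99, 7.70 and 7.92 in WT mice. The KO mouse was the lower in each of these same-numbered comparisons. Of 4 measured markers of lymphoid tissue inducer and innate lymphoid cells, Kit was higher (0.56) and 3 did not pass. Their mean spanned 8.18 to 8.60 in NOD KO and 7.88 to 8.66 in NOD WT mice, 8.03 to 8.35 in BALB KO and 7.93 to 8.49 in BALB WT mice, and 7.80 to 7.91 in B6 KO and 7.97 to 8.17 in B6 WT mice. This mean too was lower without overlap in B6 and overlapped in NOD and BALB. Between same-numbered mice of NOD and BALB it was lower in some KO mice and higher in others. No detection calls were used, so these values do not show whether such cells were present. The part of these cells in the Tnfsf11 result was not tested, and in such bulk samples fewer cells of a type and less RNA per cell cannot be told apart.

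The sequence before the start of Tnfsf11 is shown because this gene was the member with the largest fall (RefSeq, GRCm38.p6, chr14:78308044-78308293, minus strand, 250 bases ending just before the start). The kB consensus, the motif bound by NF-kB dimers, was searched on both strands, and capitals in the sequences printed here mark its matches. This window held none.
Tnfsf11: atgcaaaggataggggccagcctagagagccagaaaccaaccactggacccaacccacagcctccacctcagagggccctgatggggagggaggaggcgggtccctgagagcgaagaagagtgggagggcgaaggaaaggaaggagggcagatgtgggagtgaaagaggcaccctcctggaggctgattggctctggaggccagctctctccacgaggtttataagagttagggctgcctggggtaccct

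The receptor RANK itself did not pass the test for the knockout effect. Its brighter probe set, Tnfrsf11a 1430259_at, read 9.35, 9.47 and 9.21 in NOD KO and 9.26, 8.99 and 9.13 in NOD WT mice. It read 8.67, 8.57, 8.76 and 8.57 in BALB KO and 8.54, 8.51, 8.95 and 8.45 in BALB WT mice. In B6 it read 9.01, 9.48 and 9.20 in KO mice, against 9.04, 9.05 and 9.40 in WT mice. KO and WT mice overlapped in every strain, and the BALB mice were the lowest of both genotypes. The averaged difference was 0.11 ± 0.08 (SE; adjusted p = 0.365), with a 95% interval of -0.06 to 0.28. The other probe set, 1419214_at, differed by 0.23 ± 0.08 and just missed the threshold (adjusted p = 0.0551). The 2 probe sets did not follow each other over the 20 arrays (Pearson r = -0.18, a description over arrays that share groups).

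The decoy receptor Tnfrsf11b rose in KO mice on its brighter probe set, 1449033_at, which at percentile 97.0 was among the brightest of the array. It read 11.50, 11.33 and 11.45 in NOD KO mice, against 11.29, 10.94 and 10.91 in NOD WT mice. It read 10.71, 10.09, 10.97 and 10.77 in BALB KO mice, against 9.97, 9.59, 10.52 and 10.35 in BALB WT mice. B6 KO mice read 11.20, 11.84 and 11.82, against 10.82, 11.41 and 11.04 in B6 WT mice. The genotypes did not overlap in NOD, as with 14.4% of all probe sets, and 1 BALB KO and 1 B6 KO mouse lay within the WT range, so that 8 of 10 KO mice were above all WT mice of their strain. The averaged difference was 0.48 ± 0.14 (SE), a 1.39-fold rise (adjusted p = 0.0188). It was 0.39 and did not pass without the 3 B6 arrays (adjusted p = 0.108). The dimmer probe set 1418309_at differed by 0.30 ± 0.13 (adjusted p = 0.124), and in it B6 KO 2 and KO 3, at 7.15 and 7.10, were the highest mice of the study.

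Beside the decoy receptor, markers of fibroblasts are given, since it is also known from mesenchymal cells. The sort was gated on G8.8 positive cells. Of 7 measured fibroblast markers 4 were lower and 3 higher in KO mice, with a median difference of -0.53. Col1a1 (-0.77), Col1a2 (-0.81), Col3a1 (-1.12) and Pdgfrb (-0.53) were lower. Dcn (1.53, at percentile 93.7), Lum (0.75) and Pdgfra (0.20) were higher. The list mean spanned 7.12 to 7.29 in NOD KO and 7.31 to 7.51 in NOD WT mice, 7.13 to 7.37 in BALB KO and 7.25 to 7.50 in BALB WT mice, and 7.26 to 7.58 in B6 KO and 7.30 to 7.50 in B6 WT mice. It was lower without overlap in NOD and overlapped in BALB and B6. Their part in the Tnfrsf11b result was not tested. The lymphotoxin beta receptor Ltbr, which responds to ligands of lymphoid cells, spanned 6.09 to 6.76 over all mice. Its genotypes overlapped in every strain, and its difference had a 95% interval of -0.17 to 0.15 (adjusted p = 0.935).

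**Figure D2:**
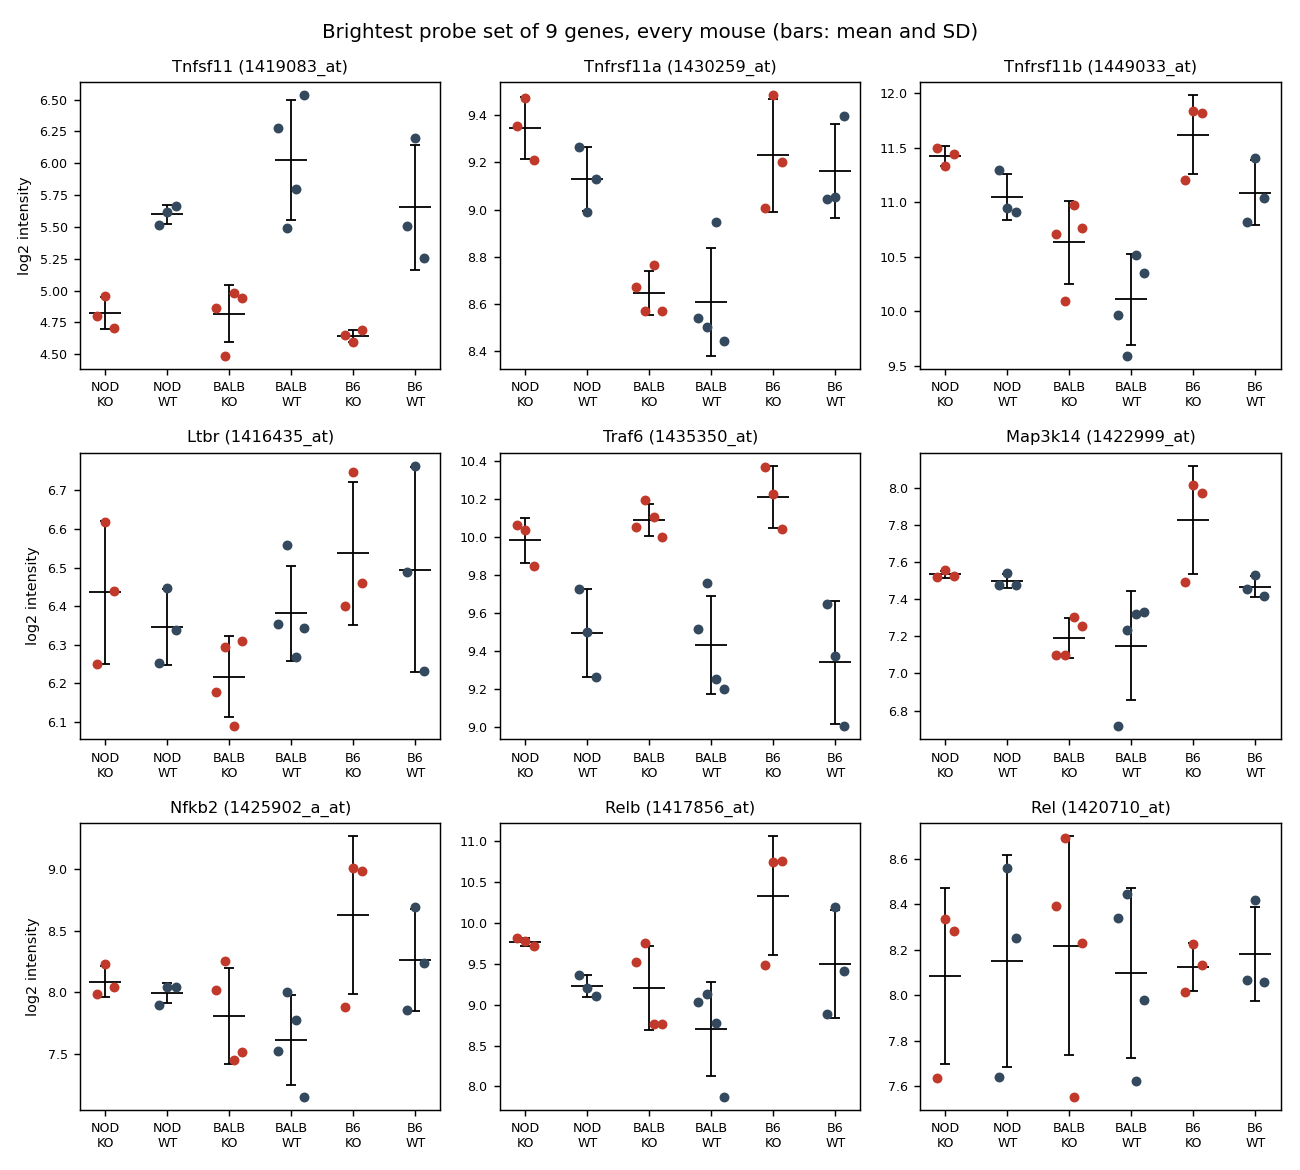
Log2 intensity of the brightest probe set of 9 genes in every mouse. KO mice (red) are left of WT mice (dark blue) of the same strain, and bars give the mean and SD. Tnfsf11 and Traf6 separate the genotypes in each strain, and Tnfrsf11a is lowest in BALB (8.65 in KO and 8.61 in WT mice).

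The adaptor Traf6 rose in KO mice on 4 of its 5 probe sets. The brightest, 1435350_at, read 10.06, 10.04 and 9.84 in NOD KO mice, against 9.72, 9.50 and 9.26 in NOD WT mice. It read 10.05, 10.19, 10.11 and 9.9998 in BALB KO mice, against 9.52, 9.76, 9.25 and 9.20 in BALB WT mice. In B6 it read 10.37, 10.23 and 10.04 in KO mice, against 9.65, 9.37 and 9.0 in WT mice. Every KO mouse lay above every WT mouse of its strain. The averaged difference was 0.67 ± 0.09 (SE), a 1.59-fold rise (adjusted p = 3.34e-05), and 0.73 without the 3 B6 arrays.

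The largest rise of the members was that of Traf6 1443288_at. It read 7.88, 8.30 and 8.24 in NOD KO mice, against 7.44, 7.41 and 7.03 in NOD WT mice. It read 8.13, 7.98, 7.95 and 7.76 in BALB KO mice, against 7.42, 7.59, 7.27 and 6.81 in BALB WT mice. B6 KO mice read 8.55, 8.69 and 8.68, against 7.58, 7.71 and 7.10 in B6 WT mice. The genotypes again did not overlap in any strain, and the difference was 0.90 ± 0.10 (1.87-fold, adjusted p = 4.57e-06). On 1421376_at the difference was 0.45 ± 0.07 (1.36-fold, adjusted p = 0.000192). In each of these 3 probe sets the 10 KO mice were above every WT mouse of the same strain, an arrangement found in 1.37% of all probe sets.

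The other Traf6 probe sets differed less. On 1421377_at the difference was 0.29 ± 0.08 (1.22-fold, adjusted p = 0.0109), with 9 of 10 KO mice above all WT mice of their strain. It was 0.27 and did not pass without the 3 B6 arrays (adjusted p = 0.0685). On 1446940_at it was 0.13 ± 0.07 (adjusted p = 0.231). Over the 20 arrays the 5 probe sets correlated with each other from -0.17 to 0.87, so the size of the Traf6 result depends on the probe set.

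**Figure D3:**
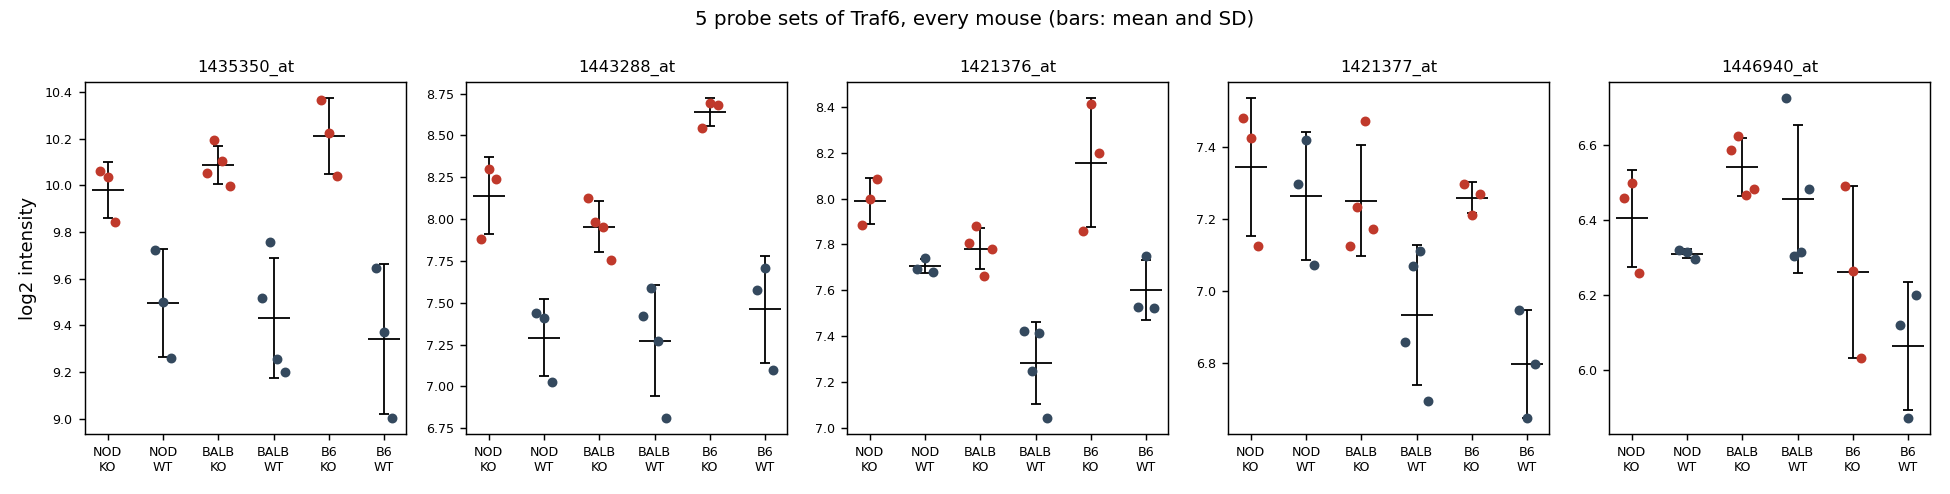
Log2 intensity of the 5 probe sets of Traf6 in every mouse, KO mice (red) left of WT mice (dark blue) of the same strain, with bars for the mean and SD. In 1435350_at, 1443288_at and 1421376_at all 10 KO mice lie above the WT mice of their strain, and in 1446940_at the genotypes overlap.

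The window before the start of Traf6 is shown because 3 of its probe sets separated KO from WT mice in each strain (RefSeq, GRCm38.p6, chr2:101678170-101678419, plus strand). It held no match to the kB consensus.
Traf6: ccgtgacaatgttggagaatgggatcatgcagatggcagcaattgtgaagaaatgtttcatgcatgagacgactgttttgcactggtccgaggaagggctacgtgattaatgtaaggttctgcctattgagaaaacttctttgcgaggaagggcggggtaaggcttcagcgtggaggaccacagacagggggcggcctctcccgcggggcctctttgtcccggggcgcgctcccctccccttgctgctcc

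The kinase NIK, encoded by Map3k14, did not pass for the averaged effect. Its probe set 1422999_at read 7.52, 7.56 and 7.53 in NOD KO and 7.48, 7.54 and 7.48 in NOD WT mice. It read 7.10, 7.10, 7.31 and 7.26 in BALB KO and 6.72, 7.23, 7.32 and 7.33 in BALB WT mice. In B6 it read 7.49, 8.02 and 7.97 in KO mice, against 7.46, 7.53 and 7.42 in WT mice. B6 KO 2 and KO 3, of the arrays that stood apart, were the highest of all mice. The averaged difference was 0.15 ± 0.08 (adjusted p = 0.224) on this probe set and 0.40 ± 0.16 (adjusted p = 0.0935) on 1434364_at. On that probe set B6 KO 2 and KO 3 read 7.97 and 8.04, against 5.81 to 7.41 in all WT mice.

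Relb, the partner of processed Nfkb2 in the noncanonical branch, rose in KO mice, just past the threshold. It read 9.82, 9.78 and 9.72 in NOD KO mice, against 9.37, 9.21 and 9.11 in NOD WT mice. It read 9.53, 9.76, 8.76 and 8.77 in BALB KO mice, against 9.03, 9.14, 8.77 and 7.87 in BALB WT mice. B6 KO mice read 9.49, 10.74 and 10.76, against 8.88, 10.19 and 9.41 in B6 WT mice. In NOD every KO mouse lay above every WT mouse, as with 14.4% of all probe sets. The genotypes overlapped in BALB and B6, and in B6 the arrays that stood apart had the highest values of their genotypes. The averaged difference was 0.63 ± 0.21 (SE), a 1.54-fold rise (adjusted p = 0.0440). Without the 3 B6 arrays it was 0.46 and did not pass (adjusted p = 0.147). The call was also lost on leaving out any 1 of 14 mice (adjusted p = 0.0537 to 0.093), namely any NOD mouse, BALB KO 1, KO 2, WT 3 or WT 4, or B6 KO 2, KO 3, WT 1 or WT 3. Between same-numbered mice of NOD and BALB, taken here as pairs, Relb was higher in KO in 6 of 7, with differences of -0.02 to 0.89.

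Of Nfkb2, the precursor of the noncanonical factor, the probe set 1429128_x_at rose, whose suffix marks probes that may also match other sequences. It read 7.85, 7.68 and 7.77 in NOD KO mice, against 7.51, 7.37 and 7.45 in NOD WT mice. It read 7.30, 7.31, 7.21 and 7.15 in BALB KO mice, against 7.0, 7.30, 7.14 and 7.01 in BALB WT mice. In B6 it read 7.68, 8.17 and 8.12 in KO mice, against 7.57, 8.0 and 7.74 in WT mice. NOD showed no overlap, with KO above WT mice as in 14.4% of all probe sets. Over the strains 7 of 10 KO mice were above all WT mice of their strain. The difference was 0.23 ± 0.07 (1.17-fold, adjusted p = 0.0361), and 0.16 without the 3 B6 arrays (adjusted p = 0.143). It did not pass either on leaving out any 1 of 11 mice (adjusted p = 0.0522 to 0.0832), namely NOD KO 1, KO 3, WT 2 or WT 3, BALB KO 1, WT 1 or WT 4, or B6 KO 2, KO 3, WT 1 or WT 3. The brighter 1425902_a_at differed by 0.22 ± 0.16 (adjusted p = 0.347), and the probe sets followed each other over the arrays (r = 0.85).

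Rel, a canonical factor best known from lymphocytes, did not pass. It spanned 7.55 to 8.69 in KO and 7.62 to 8.56 in WT mice, and its difference had a 95% interval of -0.33 to 0.33 (adjusted p = 0.996). Within both genotypes of NOD the first mouse, at 7.64 in each, was the lowest of its group.

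The first of 3 starts of Nfkb2 (chr19:46304487-46304736, plus strand) and the start of Rel (chr11:23770970-23771219, minus strand; both RefSeq, GRCm38.p6) are shown because windows of these genes held kB matches. In Nfkb2 overlapping matches began at -39 and -38 and another at -11 relative to the start, and its other starts held matches at -236 and -225. In Rel overlapping matches began at -92 and -91. Of the 10 genes 7 were in the table, with 9 windows, and 2 of these 7 genes held a match. By window, 4 of 9 held one, 3 of them windows of Nfkb2, against 7.25% of all 32851 windows of the same length. A match describes these letters only.
Nfkb2: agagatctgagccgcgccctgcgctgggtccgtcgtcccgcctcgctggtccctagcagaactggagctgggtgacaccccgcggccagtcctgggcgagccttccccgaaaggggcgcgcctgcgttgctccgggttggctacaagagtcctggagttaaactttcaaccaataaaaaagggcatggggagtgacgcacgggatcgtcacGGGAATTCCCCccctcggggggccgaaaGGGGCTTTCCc
Rel: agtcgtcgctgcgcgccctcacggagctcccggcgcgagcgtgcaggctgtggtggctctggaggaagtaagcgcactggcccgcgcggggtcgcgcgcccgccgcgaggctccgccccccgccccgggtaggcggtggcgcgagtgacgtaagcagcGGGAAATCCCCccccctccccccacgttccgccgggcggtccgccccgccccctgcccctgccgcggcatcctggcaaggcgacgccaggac

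Each strain was then compared on its own. In NOD 1 of 18 probe sets passed, against 4.23% of all probe sets. It was Traf6 1443288_at (0.85 ± 0.19, adjusted p = 0.0121). None passed without NOD WT 3, KO 2 or KO 3, and 2 passed without BALB WT 2, BALB WT 4 or B6 WT 2. Tnfsf11 differed by -0.78 ± 0.23 there (adjusted p = 0.0797) and Relb by 0.54 ± 0.38 (adjusted p = 0.64). Same-numbered NOD mice deviated together, as did same-numbered BALB mice, and with the replicate number as a block 6 probe sets passed in NOD, against 11.4% of all probe sets. These were Tnfsf11 (adjusted p = 0.0104), Tnfrsf11b 1449033_at (0.0388), Traf6 1435350_at and 1443288_at (0.0086 and 0.0022), Nfkb2 1429128_x_at (0.0364) and Relb, which lay at the threshold.

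In BALB 4 of 18 passed, against 6.84% of all probe sets. Tnfsf11 fell by 1.21 ± 0.20 (adjusted p = 0.000841), and Traf6 rose on 1435350_at (0.66 ± 0.14, adjusted p = 0.00798), 1443288_at (0.68 ± 0.16, adjusted p = 0.0149) and 1421376_at (0.50 ± 0.11, adjusted p = 0.00991). With the replicate number as a block 7 passed, against 17.3% of all probe sets, which added Traf6 1421377_at (adjusted p = 0.015), Tnfrsf11b 1449033_at (0.00153) and Relb (0.0284).

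In B6 5 of 18 passed, against 8.62% of all probe sets. Tnfsf11 fell by 1.01 ± 0.23 (adjusted p = 0.00943), and Traf6 rose on 1435350_at (0.87 ± 0.17), 1443288_at (1.18 ± 0.19), 1421376_at (0.56 ± 0.13) and 1421377_at (0.46 ± 0.14, adjusted p = 0.0412). Without the 3 B6 arrays, which leaves 1 KO against 2 WT mice, Traf6 1435350_at differed by 1.04 and 1443288_at by 1.21. On leaving out 1 mouse the B6 count was 3 without KO 2 or WT 3, against 5.9% and 5.76% of all probe sets. It was 8 without KO 1, against 11.2%. The lone KO array is assumed to vary like the other groups.

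A dependence of the knockout effect on strain was tested directly. None of the 18 probe sets passed the limma F test, against 0.435% of all probe sets, and none had an unadjusted p under 0.05. With array weights 1 passed, Tnfrsf11b 1418309_at, against 3.78% of all probe sets. Its knockout effect in NOD minus that in B6 was -0.80 ± 0.34 in the fit without weights (unadjusted p = 0.0301). With 3 or 4 mice per group, this does not show that the strains responded alike.

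Codes that the labels give to all but 1 B6 WT mouse form 4 runs, whose meaning the labels do not state. Tnfsf11 was lower in KO mice in all 5 comparisons of a strain within a run (-1.21 to -0.72). Within runs Traf6 1435350_at was higher by 0.34 to 0.95, Tnfrsf11b 1449033_at by 0.21 to 0.62 and Relb by 0.44 to 0.95. Tnfrsf11a 1430259_at differed by -0.03 to 0.28. With the run as a block 12 of 18 probe sets passed for the averaged effect, against 25.1% of all probe sets, Relb with 0.66 (adjusted p = 0.00075).

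Among WT mice, 3 of 18 probe sets differed between strains in the limma F test, against 11.3% of all probe sets. These were Tnfrsf11a 1430259_at (adjusted p = 0.0139), Tnfrsf11b 1449033_at (adjusted p = 0.00918) and Nfkb2 1429128_x_at (adjusted p = 0.0048). All 3 were lowest in BALB. With the code run as a block Tnfrsf11b stayed past the threshold (adjusted p = 0.0463), and Tnfrsf11a (0.194) and Nfkb2 (0.0865) did not. Among KO mice 7 of 18 passed, against 17.9%, namely the same 3 (adjusted p = 0.00246, 0.0108 and 0.000828), Tnfrsf11b 1418309_at (0.0232), Traf6 1443288_at (0.0295) and Map3k14 1422999_at and 1434364_at (0.0109 and 0.0346). The KO count was 3 without B6 KO 2 or without KO 3, against 10.7% and 10.6% of all probe sets. It was 10 without B6 KO 1, against 26%. With the code run as a block it was 3, against 9.83%, namely Tnfrsf11a 1430259_at, Nfkb2 1429128_x_at and Relb. Without the 3 B6 arrays 4 passed among WT mice, against 9.19% of all probe sets, and 2 among KO mice, against 8.43%, Tnfrsf11a 1430259_at (adjusted p = 0.0083) and Nfkb2 1429128_x_at (0.00544).

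The strain levels of these genes were as follows. Tnfrsf11a 1430259_at averaged 9.35 ± 0.13 in NOD, 8.65 ± 0.09 in BALB and 9.23 ± 0.24 in B6 KO mice (SD, n = 3, 4 and 3), and 9.13 ± 0.14, 8.61 ± 0.23 and 9.16 ± 0.20 in WT mice of these strains. Tnfrsf11b 1449033_at averaged 11.43 ± 0.09 in NOD, 10.63 ± 0.38 in BALB and 11.62 ± 0.36 in B6 KO mice, and 11.05 ± 0.21, 10.11 ± 0.41 and 11.09 ± 0.30 in WT mice. On these probe sets NOD and B6 did not differ past the test, and BALB lay below them in each genotype. On the other probe sets BALB was not the lowest throughout. Tnfrsf11b 1418309_at averaged 5.89 in NOD, 6.06 in BALB and 6.80 in B6 KO mice, and 5.96, 5.84 and 6.07 in WT mice. Tnfrsf11a 1419214_at averaged 6.71, 6.97 and 7.01 in KO mice and 6.52, 6.81 and 6.68 in WT mice of these strains. In the limma F test 1419214_at did not pass in KO or WT mice (adjusted p = 0.233 and 0.364), nor 1418309_at in WT mice (0.778). Nfkb2 1429128_x_at averaged 7.77 ± 0.09, 7.24 ± 0.07 and 7.99 ± 0.27 in NOD, BALB and B6 KO mice, and 7.44 ± 0.07, 7.11 ± 0.14 and 7.77 ± 0.22 in WT mice. Relb averaged 9.77 ± 0.05, 9.20 ± 0.52 and 10.33 ± 0.73 in KO mice of these strains and 9.23 ± 0.13, 8.70 ± 0.57 and 9.49 ± 0.66 in WT mice, with the widest spread between mice in BALB and B6.

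NOD was compared with BALB. In KO mice 3 probe sets were higher and none lower in NOD, against 3.8% of all probe sets higher and 4.99% lower. They were Tnfrsf11a 1430259_at (0.70 ± 0.14, adjusted p = 0.00279), Tnfrsf11b 1449033_at (0.79 ± 0.23, adjusted p = 0.0398) and Nfkb2 1429128_x_at (0.53 ± 0.12, adjusted p = 0.0104). In WT mice 3 were higher and none lower, against 2.48% higher and 3.66% lower: Tnfrsf11a 1430259_at (0.52 ± 0.14, adjusted p = 0.0299), Tnfrsf11b 1449033_at (0.94 ± 0.23, adjusted p = 0.0197) and Traf6 1421376_at (0.42 ± 0.12, adjusted p = 0.0481). No B6 mean enters these differences, but their SE and adjusted p rest on 1 spread estimated from all 20 arrays, B6 included. With the code run as a block 4 were higher in KO mice, against 4.42% of all probe sets. In WT mice 3 were higher in that fit, against 2.97%. Tnfrsf11b and Nfkb2 1429128_x_at then passed in both genotypes, Relb too (1.07 in KO and 1.03 in WT mice, adjusted p = 0.0125 and 0.0208), and Tnfrsf11a passed in KO mice.

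NOD and B6 differed in few members. In KO mice 1 probe set was lower in NOD, Tnfrsf11b 1418309_at (-0.91 ± 0.24, adjusted p = 0.0216), against 5.84% of all probe sets lower. In WT mice 1 was higher, Traf6 1421377_at (0.47 ± 0.14, adjusted p = 0.0456), against 2.53% higher. Neither passed without the 3 B6 arrays.

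BALB was below B6 in several members. In KO mice 8 of 18 probe sets of 6 genes were lower and none higher, against 6.66% of all probe sets lower and 5.51% higher. Relb differed by -1.13 ± 0.36 (adjusted p = 0.0481), Map3k14 by -0.64 ± 0.14 and -1.01 ± 0.28 (adjusted p = 0.00664 and 0.0242), and Nfkb2 1429128_x_at by -0.75 ± 0.12 (adjusted p = 0.000712). Tnfrsf11a 1430259_at differed by -0.59 ± 0.14 (adjusted p = 0.0103), Traf6 1443288_at by -0.68 ± 0.18 (adjusted p = 0.0185), and Tnfrsf11b by -0.98 ± 0.23 and -0.74 ± 0.23 (adjusted p = 0.0105 and 0.039). Without the 3 B6 arrays none was called lower, against 0.941% of all probe sets, with 1 B6 KO mouse left. Relb then differed by -0.29 (adjusted p = 0.943) and Nfkb2 1429128_x_at by -0.43 (adjusted p = 0.2).

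In WT mice 3 of 18 were lower in BALB than in B6 and none higher, against 3.53% lower and 2.57% higher. Tnfrsf11a 1430259_at differed by -0.55 ± 0.14 (adjusted p = 0.0209), Tnfrsf11b 1449033_at by -0.98 ± 0.23 (adjusted p = 0.0158) and Nfkb2 1429128_x_at by -0.66 ± 0.12 (adjusted p = 0.00292). Relb differed by -0.79 ± 0.36 (adjusted p = 0.233). Without the 3 B6 arrays Tnfrsf11a (-0.61, adjusted p = 0.0314) and Nfkb2 (-0.54, adjusted p = 0.00995) passed and Tnfrsf11b did not (-0.82, adjusted p = 0.0848). With the code run as a block none passed in either genotype, in a fit where B6 shares a run with the other strains only through 1 KO mouse.

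**Figure D4:**
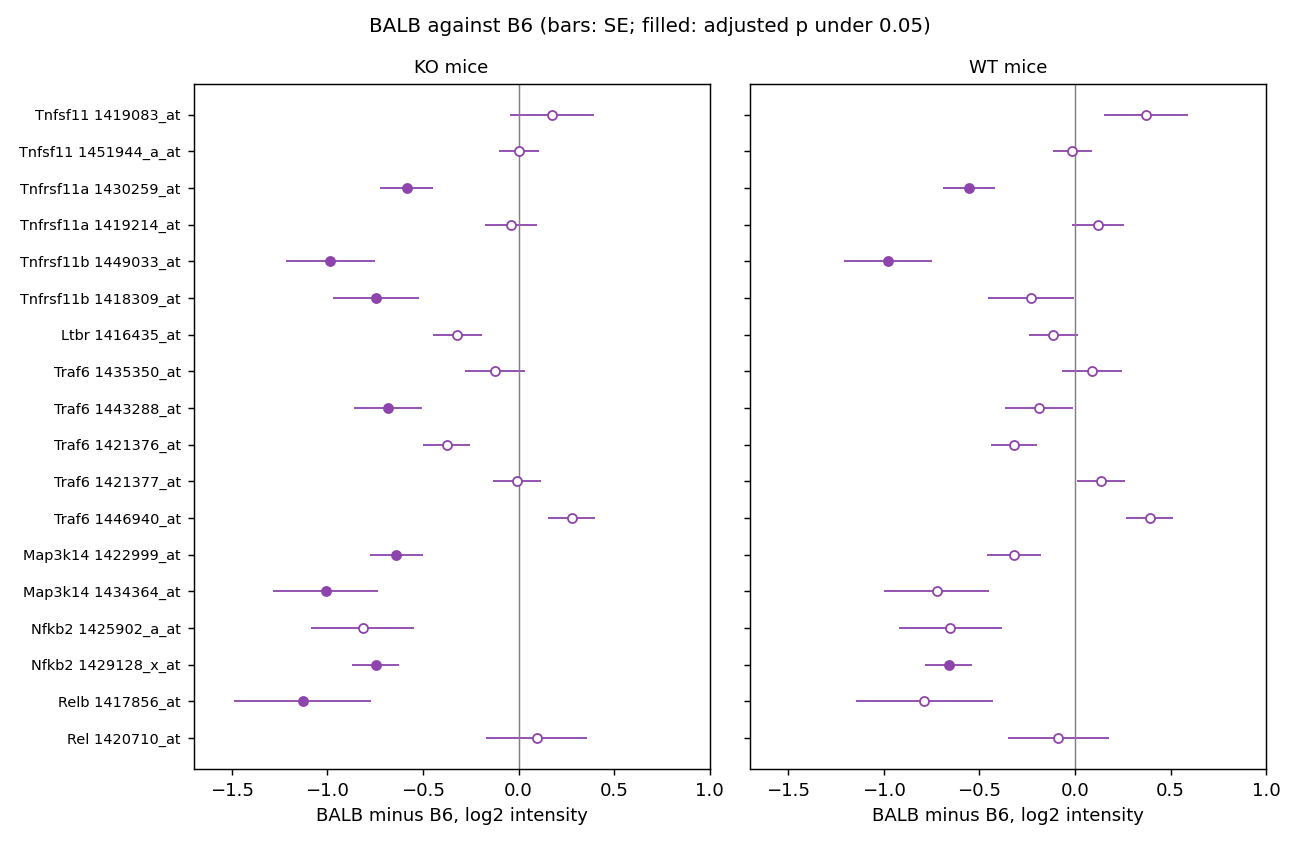
BALB minus B6 in log2 intensity for the 18 probe sets, in KO mice (left panel) and WT mice (right panel). Bars are the SE, and filled points passed the test: 8 in KO and 3 in WT mice, all left of 0.

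Other genes of the pathway were taken from 4 lists holding 49 genes, 44 of them measured, with the brightest probe set per gene. Of all probe sets 10.1% were lower and 10.5% higher in KO mice for the averaged effect. Of 11 measured ligands and receptors 1 fell in KO mice and 10 did not pass (median -0.04, against 0.06 over all probe sets). It was Tnfrsf13c, the receptor for BAFF best known from B cells (-1.21 ± 0.20, adjusted p = 0.000302), with 9 of 10 KO mice below all WT mice of their strain. Beside it, of 5 measured B cell markers Blk was higher (0.25, adjusted p = 0.0253) and 4 did not pass, among them Ms4a1, which differed by -0.88 (adjusted p = 0.0657). The list mean spanned 7.11 to 7.45 in NOD KO and 7.24 to 7.65 in NOD WT mice, 6.80 to 7.64 in BALB KO and 6.81 to 7.58 in BALB WT mice, and 6.93 to 7.21 in B6 KO and 7.06 to 7.14 in B6 WT mice, with overlap in each strain. Their part in the Tnfrsf13c result was not tested. Of 13 adaptors and kinases 1 fell and 12 did not pass (median 0.08), namely Traf5, an adaptor of several receptors of the family (-0.57 ± 0.13, adjusted p = 0.00415), whose other probe set differed by -0.07.

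Of 11 partner factors and inhibitors 2 fell, 2 rose and 7 did not pass (median -0.05). The atypical inhibitors Nfkbiz (-0.52 ± 0.16, adjusted p = 0.0325) and Bcl3 (-0.21 ± 0.07, adjusted p = 0.0389) fell, and the deubiquitinase Cyld (0.31 ± 0.08, adjusted p = 0.00672) and the inhibitor Nfkbib (0.22 ± 0.06, adjusted p = 0.0156) rose. In this list Nfkbiz alone passed without the 3 B6 arrays. The call of Bcl3 was lost on leaving out any 1 of 12 mice, NOD KO 1, KO 3, WT 1 or WT 2, BALB KO 1, KO 3, KO 4, WT 2 or WT 3, or B6 KO 1, KO 3 or WT 3. That of Nfkbiz was lost on leaving out any 1 of 6, NOD KO 1, WT 2 or WT 3, BALB KO 1, or B6 KO 1 or WT 2.

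Of 9 measured known targets 3 fell, 3 rose and 3 did not pass (median 0.03). The chemokine Cxcl13, which attracts B cells, fell by 1.89 ± 0.20 (adjusted p = 1.59e-06). The addressin Madcam1 fell by 1.09 ± 0.12 (limma, adjusted p = 1.96e-06), with all 10 KO mice below all WT mice of their strain, as in 3.17% of all probe sets. The chemokine Ccl22 fell by 0.93 ± 0.28 (limma, adjusted p = 0.0265). Of 5 measured endothelium markers, Cd34 was lower (-2.11), Pecam1 higher (0.21) and the others did not pass. Their mean spanned 5.94 to 6.26 in NOD KO and 6.45 to 6.64 in NOD WT mice. It spanned 6.11 to 6.34 in BALB KO and 6.20 to 6.65 in BALB WT mice. In B6 it spanned 6.221 to 6.519 in KO and 6.521 to 6.678 in WT mice. It overlapped in BALB only. Their part in the Madcam1 result was not tested. The costimulatory ligand Cd80 (0.85 ± 0.23, adjusted p = 0.0129), Aire (0.74 ± 0.14, adjusted p = 0.00104) and the survival factor Bcl2l1 (0.47 ± 0.09, adjusted p = 0.00138) rose. Bcl2l1 was named after its values were seen, to complete the count. With the 3 B6 arrays left out 2 fell and 3 rose, and Ccl22 did not pass, nor did it without NOD KO 1, WT 2 or WT 3.

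**Figure D5:**
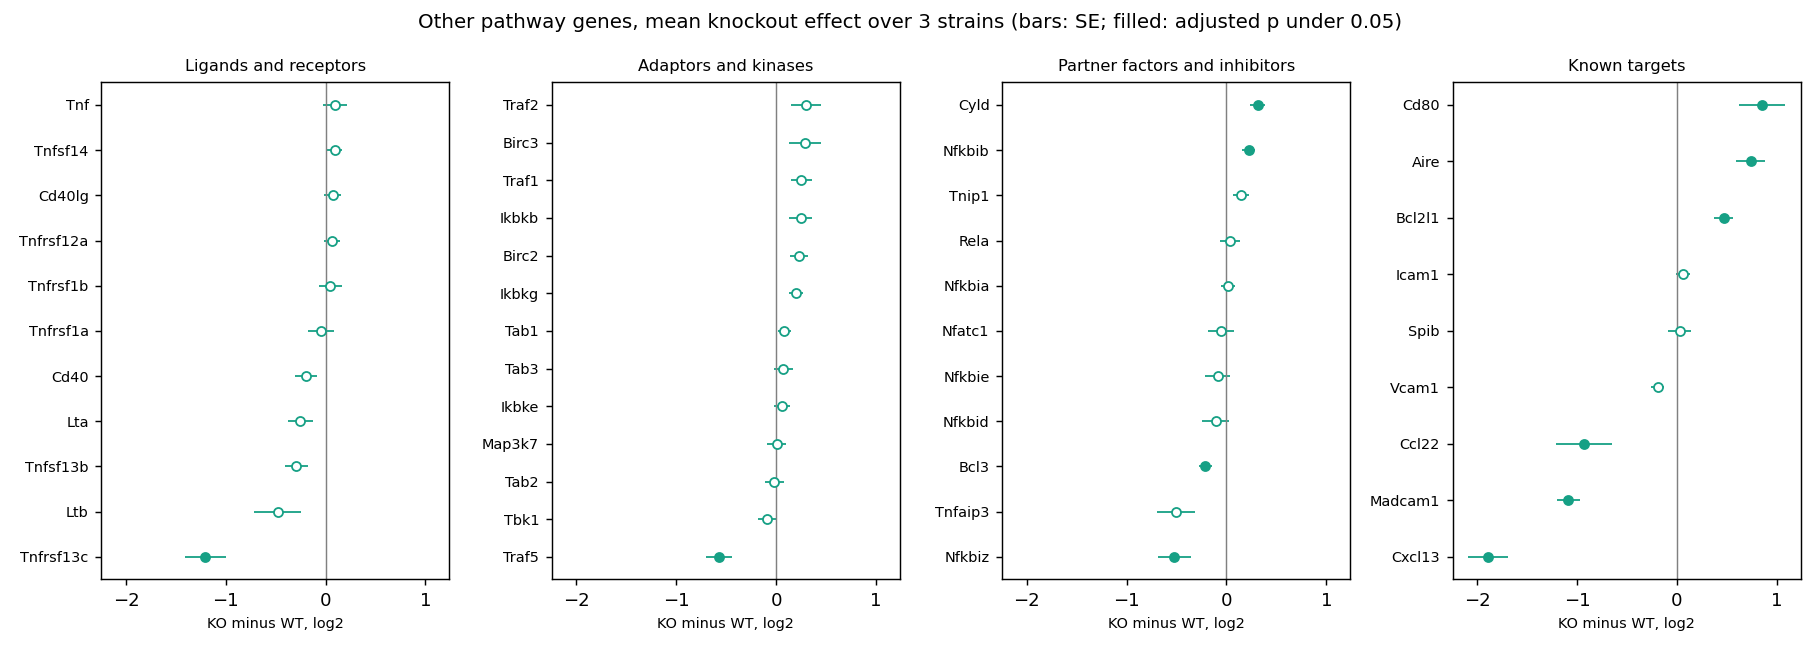
Averaged knockout effect (KO minus WT, log2 intensity) for the measured genes of 4 pathway lists, 1 panel per list, with the SE as bars and filled points for genes that passed the test. The known targets lie on both sides of 0, from Cxcl13 (-1.89) to Cd80 (0.85).

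Among WT mice, some genes of these lists also differed between strains. In the F test 1 of 11 ligands and receptors, 3 of 13 adaptors and kinases, 1 of 11 partner factors and inhibitors and 2 of 9 targets passed. Of all probe sets 11.3% passed. Tnfrsf1b, a receptor for tumour necrosis factor, averaged 8.33 in NOD, 7.06 in BALB and 7.17 in B6 WT mice (adjusted p = 0.000554), and the adaptor Traf1 averaged 8.98, 8.11 and 7.95 (adjusted p = 0.00263). The kinase partner Tab3 was highest in BALB, with 9.23, 9.81 and 9.33 in NOD, BALB and B6 (adjusted p = 0.032). Nfkbib averaged 8.45, 8.01 and 8.38 (adjusted p = 0.0135), Madcam1 8.87, 7.89 and 8.18 (adjusted p = 0.00817) and Aire 11.19, 10.25 and 10.73 (adjusted p = 0.0417), each lowest in BALB.

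The genes most like Relb and Tnfrsf11a were found by Pearson correlation of log2 intensity over the 20 arrays, among 18193 genes, as a description over arrays that share groups and amplification. For Relb they were Fut8, Actn3, Selenof, Gja4 and Birc3 (r = 0.94 to 0.95). For Tnfrsf11a they were Zfp13, Rhobtb2, Nsmce1, Sec1 and Rps6 (r = 0.89 to 0.91). After group means were taken off, r was 0.90 to 0.96 for the genes like Relb and 0.50 to 0.71 for those like Tnfrsf11a.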

How the data were processed

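Per the labels' protocols, RNA of sorted cells was isolated with Trizol, amplified in a pair of rounds and labelled with biotin. The deposited table holds intensity values on a linear scale, which the authors made with RMA per the submitters' processing notes, with version and settings not given in the sources used here. No detection calls were used. Of 45101 probe sets 64 control sets were left out. The annotation gave 1 symbol for 34945, several for 932 and did not list 9160. Log2 values of 45037 probe sets were fitted with limma 3.58.1 in R 4.3.3 (6 group means, all 20 arrays, 14 residual degrees of freedom, eBayes), with Benjamini-Hochberg adjustment over all probe sets and a threshold of 0.05. Code was tested on simulated data. Array number limits the precision.

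The members, lists and tests were chosen with earlier results of these data known. The genes named are all members, from each list up to 4 of the largest averaged effects and up to 2 of the widest WT strain ranges past the test, and the 5 genes most like Relb and Tnfrsf11a. Same-numbered mice correlated in their deviations from group means by 0.46 to 0.66 in BALB and 0.31 to 0.67 in NOD, and were taken as pairs there. The titles give replicate numbers only and state no pairs. Same-numbered NOD and BALB mice also share a code run, so a pair and a run cannot be told apart. In B6 the values were 0.78, 0.72 and -0.13, so the B6 numbers were not used as pairs. RefSeq promoter windows (GRCm38.p6) were searched for the kB consensus on both strands, after a looser form had also been run, and the stricter one was kept after matches were seen. The windows of Relb, Tnfrsf11b and Nfkb1 were not used here. Alternatives were scaling, a filter on dim probe sets, an offset of 32 before log2, an intensity trend, array weights, blocks, the arrays fitted, 1 value per gene and leaving out each mouse.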

Additional observations from a re-analysis of the deposited data

Results flagged for a closer look

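In Map3k14 1422999_at, 1 BALB WT mouse, number 1, read 6.72, while the other BALB WT mice read 7.23 to 7.33. Its gap to the nearest mouse was 0.845 of the range of the group. It was the single such case among 36 tested, the member probe sets in BALB KO and BALB WT mice, and chance gives about 1 in 20.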

How the results depend on the processing

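For the averaged effect, no called value of the members or of the list genes picked by rule changed sign under any alternative run. Tnfsf11 1419083_at passed for the averaged effect in 28 of 28 alternatives that tested it (-1.06 to -0.55), and Traf6 1435350_at, 1443288_at and 1421376_at in 29 of 29. Traf6 1421377_at and Tnfrsf11b 1449033_at passed in 28 of 29, Nfkb2 1429128_x_at in 17 (0.16 to 0.28) and Relb in 13 (0.46 to 0.77, adjusted p 0.000114 to 0.147). Member probe sets past the threshold were counted under each alternative. With array weights, 13 passed in B6 (28.3% of all probe sets), 5 in NOD (15.1%), 6 between WT strains (18.3%), 13 between KO strains (57.4%) and 1 for strain dependence (3.78%). With the replicate number as a block, 10 passed in B6 (21.5% of all probe sets), 7 in BALB (17.3%), 6 in NOD (11.4%) and 11 for the averaged effect (37.0%). In B6 the numbers were not taken as pairs. With the code run as a block, 2 passed in NOD (6.86% of all probe sets), 1 between WT strains (6.38%), 3 between KO strains (9.83%) and 12 for the averaged effect (25.1%). Results without B6 WT 2, KO 2 and KO 3, which leaves 1 B6 KO mouse, are given in the sections above. With the arrays of 1 strain alone, 2 passed in B6 and 3 in NOD. Leaving out each mouse gave 6 to 11 for the averaged effect, 11 without B6 KO 1 (21.3% of all probe sets). It gave 3 to 8 in B6, 3 without KO 2 or WT 3 (5.9% and 5.76%) and 8 without KO 1 (11.2%). It gave 3 to 4 in BALB and 0 to 2 in NOD (0 without WT 3, KO 2 or KO 3). Between WT strains it gave 3 to 4, and for strain dependence 0. Between KO strains it gave 3 to 10, 3 without B6 KO 2 or KO 3 (10.7% and 10.6%) and 10 without B6 KO 1 (26%). A random replicate block, chosen after seeing the data, gave 4 between WT strains (11.8% of all probe sets) and 8 between KO strains (19.3%). With the median over a gene's probe sets, 4 genes passed, Tnfsf11 (-0.50), Tnfrsf11b (0.39), Traf6 (0.66) and Relb (0.63). Over all probe sets the averaged count of 9277 became 16715 with weights and 16664 with the block, and the B6 count of 3880 became 12733, 9695 and, without the 3 arrays, 1245. The BALB count of 3079 became 7787 with the block and 4911 with the run. The cause of these shifts was not tested. The median of all probe sets stayed at 0.03 to 0.07. No detection calls were used, so low probe sets such as Tnfsf11 have no known signal over background.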
